A study of Homo sapiens with 50 samples.

Results

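A549 cells, a human lung adenocarcinoma line, were followed for 6 h after addition of DMSO, the solvent, in medium without serine. The comparison rests on 6 of the 50 arrays of the series, chosen by their titles: 3 arrays of cells collected at 6 h and 3 of cells collected at 0 h. Both groups had grown in RPMI and were moved to basal medium (BME) with non-essential amino acids but no serine 24 h before DMSO was added, so the 0 h cells had already been without serine for 24 h, and neither group received compound 16, the PKM activator of the study. A second set of 0 h arrays without serine, 3 from the arm given 1 uM compound 16, had the same change of medium and is used below as another baseline. The same interval in medium with serine, again 3 arrays at 6 h and 3 at 0 h in DMSO, was the comparison set beside it. Nothing in the labels states that each array stands for its own culture. The p-values therefore reflect only how arrays scatter within groups, pooled over all 50 arrays, and that scatter may be technical. Numbers in the array titles run in blocks by time, so a shift between such blocks and the passage of time cannot be told apart within one medium, while anything common to both media at a given time drops out when the media are subtracted.

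Serine is made from a glycolytic intermediate by PHGDH, PSAT1 and PSPH, and SHMT2 and MTHFD2 pass its side-chain carbon into the mitochondrial folate pool. When an amino acid runs short, uncharged transfer RNA activates the kinase GCN2, translation of the transcription factor ATF4 goes up, and ATF4 with C/EBP partners induces genes for amino acid synthesis, uptake and transfer RNA charging. The tests below were made on log2 probe set signals with limma over 18239 genes, with Benjamini-Hochberg adjustment and calls at an adjusted p under 0.05. Differences are given as log2 values ± SE, 6 h minus 0 h, with n = 3 arrays per group.

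The 6 arrays gave similar measurements of a similar material. Pairs of arrays within a group differed with an SD over genes of 0.21 to 0.25, and the 9 epithelial and A549 markers were bright, from EPCAM at 9.37 to 9.92 up to KRT18 at 14.32 to 14.33. Markers of fibroblasts (6) and endothelial cells (5) stayed between 3.87 and 5.30, below the median gene level of 6.44, and none was called. With centred arrays 1 of each list was called higher. Of 5 blood cell markers PTPRC lay at 3.92 to 4.30 and CD3E at 4.14 to 4.64, while CD14 at 5.59 to 6.70, LYZ at 5.11 to 6.66 and HBB at 5.41 to 6.13 were brighter, the first pair of these reaching above the median gene. LYZ was called higher. Of the 9 epithelial markers 2 were called higher and 2 lower, with EPCAM, an adhesion protein, at 0.43 ± 0.12. The gap between the 3′ and the 5′ control probe sets of ACTB, which widens as RNA breaks down, was 1.28, 1.31 and 1.37 at 6 h and 1.21, 1.04 and 1.16 at 0 h without serine, so the groups did not overlap. That of GAPDH was -0.16 to -0.15 at 6 h and -0.19 to -0.16 at 0 h. The part of this ACTB shift in the results below was not tested.

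In all, 4087 genes (22.4% of those tested) changed between 0 and 6 h without serine, 1487 of them higher at 6 h (8.15%) and 2600 lower (14.3%). Most changes were small: 21 genes rose and 12 fell by at least 2-fold, and the median size among called genes was 0.37. The balance of rises and falls depended on scaling. It was 1762 higher and 1881 lower after quantile normalization, and 3442 higher and 1080 lower when each array was centred on its median, which moved the median of all genes to 0.11, against -0.02 on the deposited values. The counts with centred arrays are therefore given beside most of those of the gene groups for 6 h minus 0 h.

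Genes for serine and one-carbon metabolism did not move together. MTHFD2, the mitochondrial methylenetetrahydrofolate dehydrogenase, had signals of 12.41, 12.39 and 12.28 at 6 h without serine, against 11.43, 11.48 and 11.47 at 0 h. PSAT1, the phosphoserine aminotransferase, had 12.22, 12.13 and 12.12 at 6 h and 11.14, 11.36 and 11.24 at 0 h. For both genes every 6 h array lay above every 0 h array. Such a lack of overlap, in either direction, was found for 6430 of the 18239 genes (35.3%). MTHFD2 rose by 0.90 ± 0.06 (1.87-fold, limma adjusted p = 1.88e-13) and PSAT1 by 0.91 ± 0.08 (1.88-fold, adjusted p = 2.2e-10). PSPH, the phosphatase of the last step, had 10.46, 10.40 and 10.37 at 6 h and 10.20, 10.15 and 10.18 at 0 h, again without overlap, a smaller rise of 0.23 ± 0.06 (adjusted p = 0.00444).

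PHGDH, the first enzyme of the route, did not follow them. Its signals were 9.80, 10.09 and 10.00 at 6 h and 10.10, 10.16 and 10.09 at 0 h, and the difference of -0.15 ± 0.08 did not pass the test (adjusted p = 0.174). SHMT2 stood at -0.10 ± 0.07 (adjusted p = 0.342), a sign that turned to 0.03 with centred arrays, and PKM, the pyruvate kinase that the compound of the study activates, at -0.13 ± 0.07 (adjusted p = 0.144). Of the 7 measured mitochondrial folate genes 3 rose and 0 fell: besides MTHFD2, MTHFD1L, which releases formate, by 0.49 ± 0.12, and SLC25A32, the folate carrier, by 0.37 ± 0.07. Of the 8 cytosolic folate genes none was called in either direction. With centred arrays 2 of those 8 passed as higher. Of 7 genes of glycine cleavage and use 1 rose (3 with centred arrays), DLD, a dehydrogenase shared with other complexes, by 0.18 ± 0.06, and it lost its call in 4 of 6 fits that each left out 1 array.

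**Figure D1:**
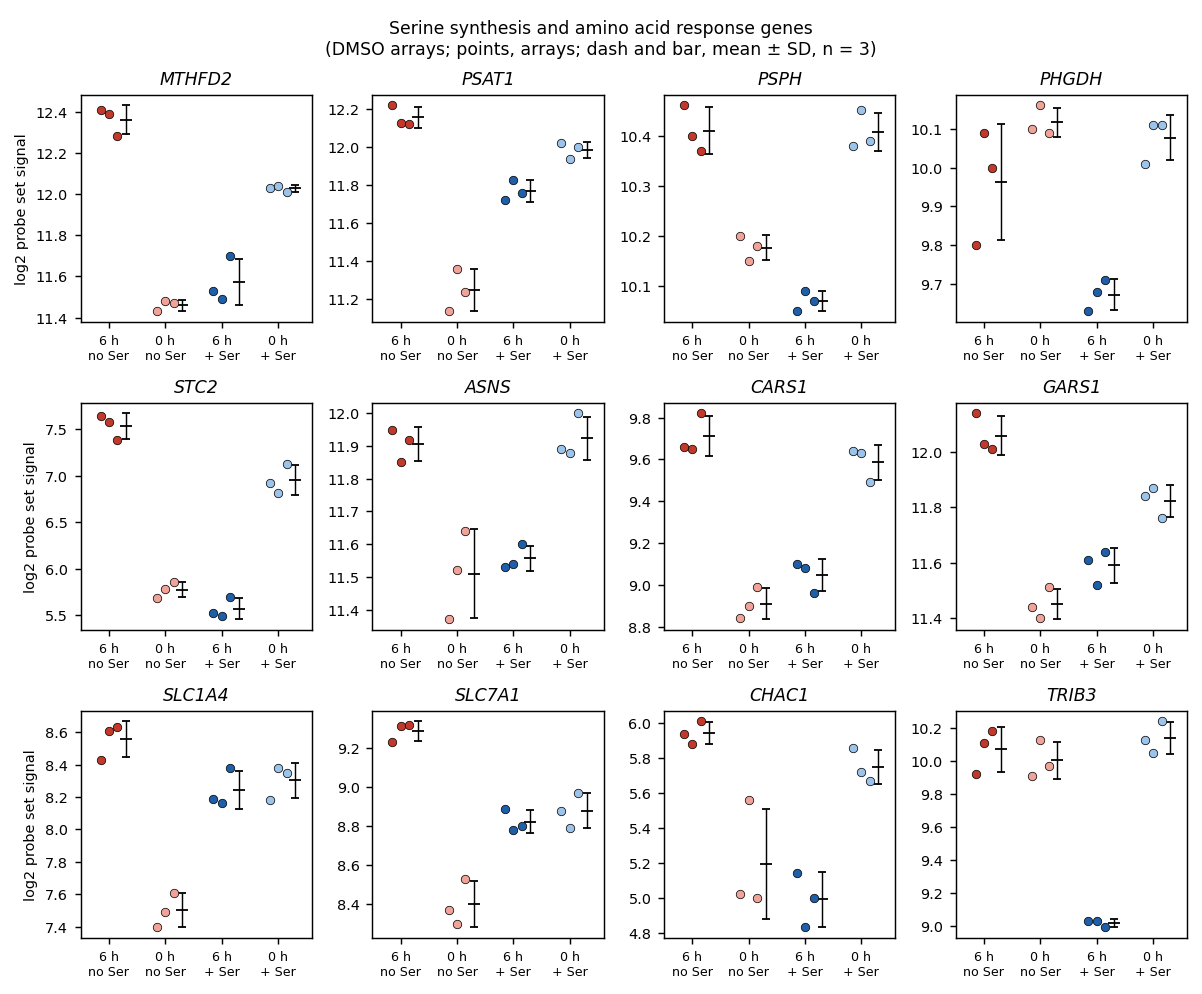
Log2 probe set signals of 12 serine synthesis and amino acid response genes, 1 panel per gene, in DMSO arrays at 6 h and 0 h without serine (red, pale red) and at 6 h and 0 h with serine (blue, pale blue). Points are arrays and the dash with its bar is the mean ± SD (n = 3). MTHFD2, PSAT1, STC2, CARS1 and GARS1 stood higher at 6 h than at 0 h without serine and lower at 6 h than at 0 h with it, while TRIB3 overlapped between the times without serine and PHGDH lay no higher at 6 h.

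The wider amino acid response rose with PSAT1 and MTHFD2. Of 19 measured genes of the response 12 rose and 1, CEBPB, fell, with a list median of 0.34 against -0.02 over all genes; with centred arrays the counts were 15 and 1. STC2, a secreted stress-induced glycoprotein, was the response gene with the largest rise, with 7.64, 7.58 and 7.38 at 6 h and 5.69, 5.78 and 5.86 at 0 h. The times were far apart, and the rise was 1.76 ± 0.17 (3.39-fold, limma adjusted p = 1.36e-09). ASNS, the asparagine synthetase, had 11.95, 11.85 and 11.92 at 6 h and 11.37, 11.52 and 11.64 at 0 h, a rise of 0.40 ± 0.07 (adjusted p = 2.36e-05).

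ATF4 itself, whose activity is set mainly by translation, was among the brightest genes and rose by 0.35 ± 0.05 (adjusted p = 5.16e-06). CHAC1, which breaks down glutathione, rose by 0.75 ± 0.16, with 5.94, 5.88 and 6.01 at 6 h and 5.02, 5.56 and 5.0 at 0 h. Its other probe set stood at 0.04, without a call. NUPR1, a small stress-induced nuclear protein, rose by 0.46 ± 0.12, and ATF5, a transcription factor related to ATF4, by 0.64 ± 0.09. TRIB3, a pseudokinase and ATF4 target, did not pass: it had 9.92, 10.11 and 10.18 at 6 h and 9.91, 10.13 and 9.97 at 0 h, values that overlapped. GDF15, a stress cytokine counted here with the p53 targets, fell by 0.67 on the log2 scale (adjusted p = 2.42e-07).

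Transfer RNA charging and amino acid uptake followed in part. Of 19 cytosolic aminoacyl-tRNA synthetases 7 rose and 4 fell, or 9 and 1 with centred arrays and 6 and 5 after quantile normalization. CARS1, the cysteine enzyme, had 9.66, 9.65 and 9.82 at 6 h and 8.84, 8.90 and 8.99 at 0 h, a rise of 0.80 ± 0.06 (adjusted p = 2.82e-11). GARS1, for glycine, rose by 0.61 ± 0.06 and TARS1, for threonine, by 0.49 ± 0.06. LARS1, for leucine, and SARS1, for serine itself, fell by 0.33 and 0.22 on the log2 scale and were picked out after their values were seen. Only 1 of the 19 was lower with centred arrays, and only 1 against the 0 h arrays of the compound arm. LARS1 and SARS1 were thus not both called lower in either setting. Of 16 mitochondrial synthetases 1 rose and 5 fell, or 1 and 2 with centred arrays, among them FARS2 at -0.40 ± 0.09 and PARS2 at -0.60 ± 0.16. The call of FARS2 was lost against the other 0 h arrays without serine, those of the compound arm, with -0.20 (adjusted p = 0.103).

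Among 23 amino acid transporters 10 rose and 3 fell (11 and 2 with centred arrays), with a list median of 0.25. SLC1A4, a carrier of serine, alanine and cysteine, had 8.43, 8.61 and 8.63 at 6 h and 7.40, 7.49 and 7.61 at 0 h. It rose by 1.06 ± 0.09 (2.08-fold, adjusted p = 1.29e-10). SLC7A1, a carrier of arginine and lysine, had 9.23, 9.31 and 9.32 at 6 h and 8.37, 8.30 and 8.53 at 0 h, a rise of 0.89 ± 0.06 (1.85-fold, adjusted p = 6.11e-13). Neither gene overlapped between the times. SLC3A2, the shared heavy chain of several exchangers, rose by 0.66 ± 0.07.

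The rises were also present against a second set of 0 h arrays. Set against the 3 arrays of the compound arm without serine collected at 0 h, the 6 h DMSO arrays were higher by 0.92 ± 0.06 for MTHFD2, 0.76 ± 0.08 for PSAT1, 2.04 ± 0.17 for STC2, 0.66 ± 0.06 for CARS1 and 0.73 ± 0.09 for SLC1A4. All 5 passed the test there. That comparison shares its 6 h arrays with the first one, and it called 3342 genes (18.3%). Both sets of 0 h arrays lie in the same block of title numbers, so a shift between time blocks would enter both comparisons.

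The same interval with serine ran the other way for most of the amino acid response list, but not for the transporters as a group. Between 0 and 6 h with serine 2607 genes (14.3%) changed, 852 higher (4.67%) and 1755 lower (9.62%), or 3490 higher and 608 lower with centred arrays. MTHFD2 had 11.53, 11.49 and 11.70 at 6 h and 12.03, 12.04 and 12.01 at 0 h with serine, a fall of 0.45 on the log2 scale (adjusted p = 1.17e-06). STC2 had 5.52, 5.49 and 5.70 at 6 h and 6.92, 6.81 and 7.13 at 0 h, a fall of 1.38 on the log2 scale. Thus at 0 h the arrays without serine lay below those with serine for both genes, and at 6 h above them. With serine 1 of the 19 response genes rose, ATF5, and 14 fell. Of the 23 transporters 4 rose and 4 fell with serine, with a list median of -0.01, or 7 and 2 with centred arrays.

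The difference of the changes, without minus with serine, passed for 87 genes (0.477% of those tested), 60 of them above 0 (0.329%) and 27 below (0.148%). At an unadjusted p under 0.05 it was 2023. The differences for response genes were large. STC2 differed by 3.14 ± 0.24 (8.83-fold, limma adjusted p = 8.4e-12), CHAC1 by 1.51 ± 0.23, MTHFD2 by 1.35 ± 0.08, CARS1 by 1.34 ± 0.09 and NUPR1 by 1.34 ± 0.17. TUBE1, the epsilon-tubulin of centrioles, differed by 1.46 ± 0.22, with a rise of 1.07 ± 0.15 without serine, and SNTB1, a membrane-associated syntrophin, by 1.16 ± 0.21, although 2 of the 5 probe sets of SNTB1 had the opposite sign. PSAT1 differed by 1.13 ± 0.11, SLC1A4 by 1.12 ± 0.13, ASNS by 0.76 ± 0.09 and PSPH by 0.57 ± 0.09. PHGDH, at 0.25 ± 0.11, did not pass (adjusted p = 0.405).

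Of the 60 genes above 0, 48 had risen without serine, and 22 of these had fallen with serine. Over all genes 8.15% rose without serine and 9.62% fell with it. The difference is made of these same changes, so the split is partly set by the selection. For 10 of the 60 the change without serine did not pass and the fall with serine did. TRIB3 was one, with a difference of 1.19 ± 0.10 made of 0.07 ± 0.07 without serine and -1.12 ± 0.07 with it. DEPTOR, an inhibitor of mTOR, fell in both media, by 0.60 on the log2 scale without serine and by 1.43 with it, and BBC3, a pro-apoptotic BCL2 family member, likewise by 0.55 and 1.11; both differences lost their call when only the arrays compared were fitted (adjusted p = 0.112 and 0.0807). By list, 14 of the 19 amino acid response genes, 6 of the 19 cytosolic synthetases and 5 of the 23 transporters were above 0, and none of the 16 mitochondrial synthetases was called. With centred arrays 13 response genes, 5 cytosolic synthetases and 4 transporters were above 0. ATF5 rose in both media and its difference was 0.08 ± 0.13.

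**Figure D2:**
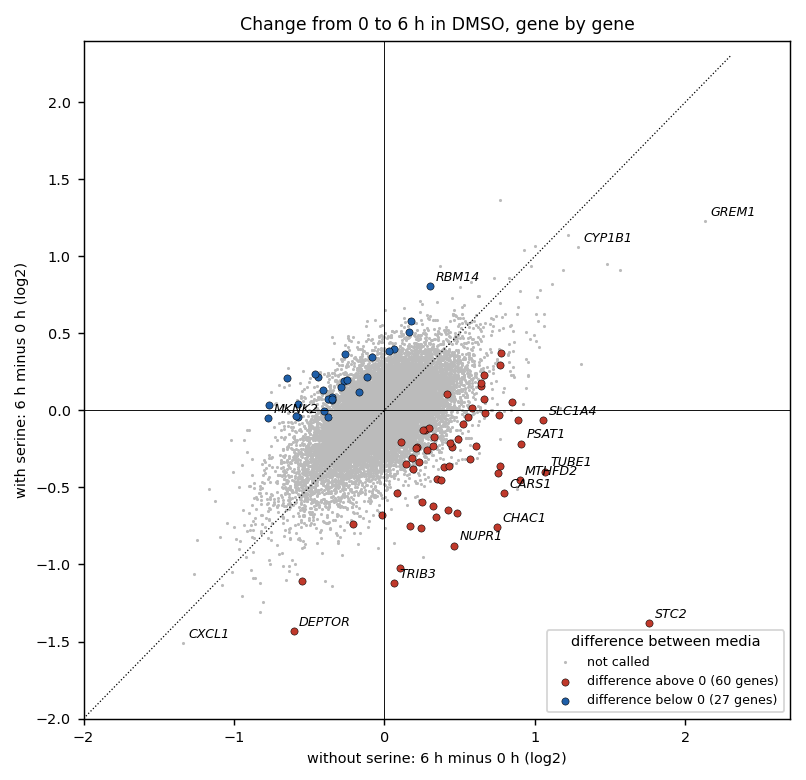
Change from 0 to 6 h in DMSO for 18239 genes, without serine on the x axis and with serine on the y axis (log2, 6 h minus 0 h). Red and blue points are the 60 and 27 genes whose difference between the media lay above and below 0, grey points are the other genes, and the dotted line marks equal change. STC2, MTHFD2, CARS1 and CHAC1 lie to the right of 0 and below it, whereas CYP1B1 and CXCL1 lie near the line.

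The promoters of genes above 0 are shown because the ATF4 and C/EBP composite element is one motif that can be read directly from them. The motif searched was TGATGNAA on both strands, in windows from 250 bases before to 50 after each annotated start (RefSeq, build GRCh38.p14). It was found in 20 of the 50 genes above 0 that had a promoter entry (40%), in 0 of 24 genes below 0, and in 522 of 14492 tested genes with an entry (3.6%); by window the share was 2.68% of 20506. Among all genes that rose without serine it was 52 of 1202 (4.33%). Of the cytosolic synthetases 7 of 16 held it (43.8%), of the transporters 6 of 19 (31.6%), and of the response genes 5 of 17 (29.4%), while neither of the 2 serine synthesis genes with an entry did. STC2, TUBE1, MTHFD2 and TRIB3, with some of the largest differences, were not among the 20 genes with a match, and PSPH, NUPR1 and SNTB1 had no entry. The capitals below mark the match in 5 of the genes above 0, read along the strand of the gene.
CHAC1: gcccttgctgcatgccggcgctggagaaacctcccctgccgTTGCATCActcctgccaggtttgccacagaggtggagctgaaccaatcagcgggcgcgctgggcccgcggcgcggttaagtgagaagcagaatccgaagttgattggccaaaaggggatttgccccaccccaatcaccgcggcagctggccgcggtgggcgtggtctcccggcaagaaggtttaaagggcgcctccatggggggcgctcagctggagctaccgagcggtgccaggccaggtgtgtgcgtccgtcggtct
CARS1: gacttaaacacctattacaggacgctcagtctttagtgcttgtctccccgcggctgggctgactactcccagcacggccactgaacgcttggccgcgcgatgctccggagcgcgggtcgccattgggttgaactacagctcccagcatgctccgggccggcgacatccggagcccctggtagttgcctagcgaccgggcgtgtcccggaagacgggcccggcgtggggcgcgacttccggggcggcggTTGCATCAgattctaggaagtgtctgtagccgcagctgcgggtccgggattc
SLC1A4: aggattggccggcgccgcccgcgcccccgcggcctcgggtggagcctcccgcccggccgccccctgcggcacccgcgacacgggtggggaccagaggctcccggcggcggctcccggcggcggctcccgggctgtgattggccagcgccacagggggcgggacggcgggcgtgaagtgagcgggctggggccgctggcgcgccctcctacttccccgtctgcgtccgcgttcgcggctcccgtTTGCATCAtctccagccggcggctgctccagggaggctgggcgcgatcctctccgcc
SLC7A1: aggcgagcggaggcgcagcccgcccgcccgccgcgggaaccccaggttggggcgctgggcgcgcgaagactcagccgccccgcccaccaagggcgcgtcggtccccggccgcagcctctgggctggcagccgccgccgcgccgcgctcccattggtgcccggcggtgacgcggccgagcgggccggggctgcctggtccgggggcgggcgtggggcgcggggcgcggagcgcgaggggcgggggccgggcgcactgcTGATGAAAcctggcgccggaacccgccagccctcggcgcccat
ASNS: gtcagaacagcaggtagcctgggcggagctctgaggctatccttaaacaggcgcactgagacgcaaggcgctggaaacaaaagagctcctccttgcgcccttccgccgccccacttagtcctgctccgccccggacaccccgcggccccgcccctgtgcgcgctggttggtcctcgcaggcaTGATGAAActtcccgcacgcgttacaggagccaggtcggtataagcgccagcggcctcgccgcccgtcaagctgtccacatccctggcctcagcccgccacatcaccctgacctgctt

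These windows lie at chr15:40953221-40953520 on the plus strand for CHAC1, chr11:3057374-3057673 on the minus strand for CARS1, chr2:64989149-64989448 on the plus strand for SLC1A4, chr13:29595639-29595938 on the minus strand for SLC7A1 and chr7:97872359-97872658 on the minus strand for ASNS. Counted from 0 at the annotated start, the match spans -209 to -202 in CHAC1, -2 to 5 in CARS1, -7 to 0 in SLC1A4, 7 to 14 in SLC7A1 and -68 to -61 in ASNS. It is on the strand opposite to the gene in CHAC1, CARS1 and SLC1A4 and reads TGATGCAA there; in SLC7A1 and ASNS it reads TGATGAAA on the strand of the gene. The changes of these 5 genes without serine ran from 0.40 for ASNS to 1.06 for SLC1A4. A match is a run of letters and was not tested as a binding site.

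Of the 27 genes below 0, 19 had fallen without serine while 5 had risen with serine and had no call without it. This split too is partly set by the selection, and over all genes 14.3% fell without serine. None of the 27 passed when only the 12 arrays compared were fitted, where 27 genes above 0 did. MKNK2, a kinase of the initiation factor eIF4E, had 8.22, 8.54 and 8.37 at 6 h and 9.20, 9.16 and 9.10 at 0 h without serine, and it differed from its change with serine by -0.72 ± 0.11 (adjusted p = 6.82e-05, or 0.0542 with only the arrays compared); 2 of its 5 probe sets had the opposite sign. Of 19 cytosolic heat shock genes 5 were below 0 and 0 above. STIP1, a co-chaperone that bridges HSP70 and HSP90, differed by -0.44 ± 0.08 (adjusted p = 0.00213, or 0.233 with only the arrays compared). It fell by 0.29 on the log2 scale without serine, a call lost with centred arrays (-0.16, adjusted p = 0.051), and stood at 0.15 ± 0.06 with serine. UBN1, a histone chaperone subunit, and PRPF38A, a splicing factor, differed by -0.61 ± 0.13 and -0.55 ± 0.13.

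The other 5 of the 8 lowest, UGT2B11, ARMCX4, PRB4, NKPD1 and ZP1, had signals of 3.74 to 5.36 in the 6 arrays, near the 10th percentile of gene levels at 4.15. For UGT2B11 the fall without serine was -0.65 ± 0.14 against the DMSO arrays at 0 h but -0.03 (adjusted p = 0.924) against those of the compound arm, and for NKPD1 it was -0.44 ± 0.10 against -0.03 (adjusted p = 0.893).

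Many other changes were shared by the media. Over all 18239 genes the changes without and with serine had a Pearson correlation of 0.58 and a Spearman correlation of 0.54; they use different arrays of the same times. Of the genes called without serine 39.7% were also called with serine in the same direction, which was 62.2% of those called with serine: 481 higher and 1141 lower. In the opposite direction were 23.

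The largest rise without serine was that of GREM1, a secreted BMP antagonist. It had 7.62, 7.18 and 7.45 at 6 h and 4.84, 6.12 and 4.89 at 0 h, a rise of 2.13 ± 0.31 (4.39-fold, limma adjusted p = 3.37e-06), against 1.23 ± 0.31 with serine. CYP1B1 and AHRR, an enzyme and a repressor induced by the aryl hydrocarbon receptor, rose together. CYP1B1 had 11.09, 11.10 and 11.05 at 6 h and 9.80, 9.74 and 9.84 at 0 h, a rise of 1.28 ± 0.08, and AHRR rose by 1.57 ± 0.23. The other probe set of AHRR stood at 0.09, without a call. The metallothioneins MT1X and MT1F, which bind zinc and copper, rose by 1.19 ± 0.07 and 1.11 ± 0.08, and MT2A by 0.40 ± 0.05. With serine these 5 genes rose too.

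Several of the other large rises were less even. F2RL2, a protease-activated receptor, rose by 1.06 ± 0.19 and SIPA1L2, a Rap GTPase activator, by 1.06 ± 0.14. ID4, an inhibitor of DNA binding by helix-loop-helix factors, rose by 1.22 ± 0.24, and TAOK1, a MAP kinase kinase kinase, by 1.04 ± 0.25. SPEN, a transcriptional repressor, had 8.66, 8.84 and 8.90 at 6 h and 8.09, 7.08 and 6.78 at 0 h; its rise of 1.48 ± 0.45 lost its call in 2 of 6 fits that left out 1 array and against the 0 h compound arm (1.07, adjusted p = 0.101). MICU3, a regulator of mitochondrial calcium uptake, had 6.44, 6.63 and 5.22 at 6 h and 4.77, 5.04 and 4.56 at 0 h, and its rise of 1.31 ± 0.29 was 0.78 (adjusted p = 0.0546) against that arm. LYZ, lysozyme, a blood cell marker also made by airway epithelium, had 6.44, 6.53 and 6.66 at 6 h and 5.33, 5.69 and 5.11 at 0 h, a rise of 1.17 ± 0.23, with 0.02 ± 0.23 with serine and a difference that did not pass (1.15 ± 0.33, adjusted p = 0.132). The other probe set of LYZ stood at 0.04 without serine and was not called.

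**Figure D3:**
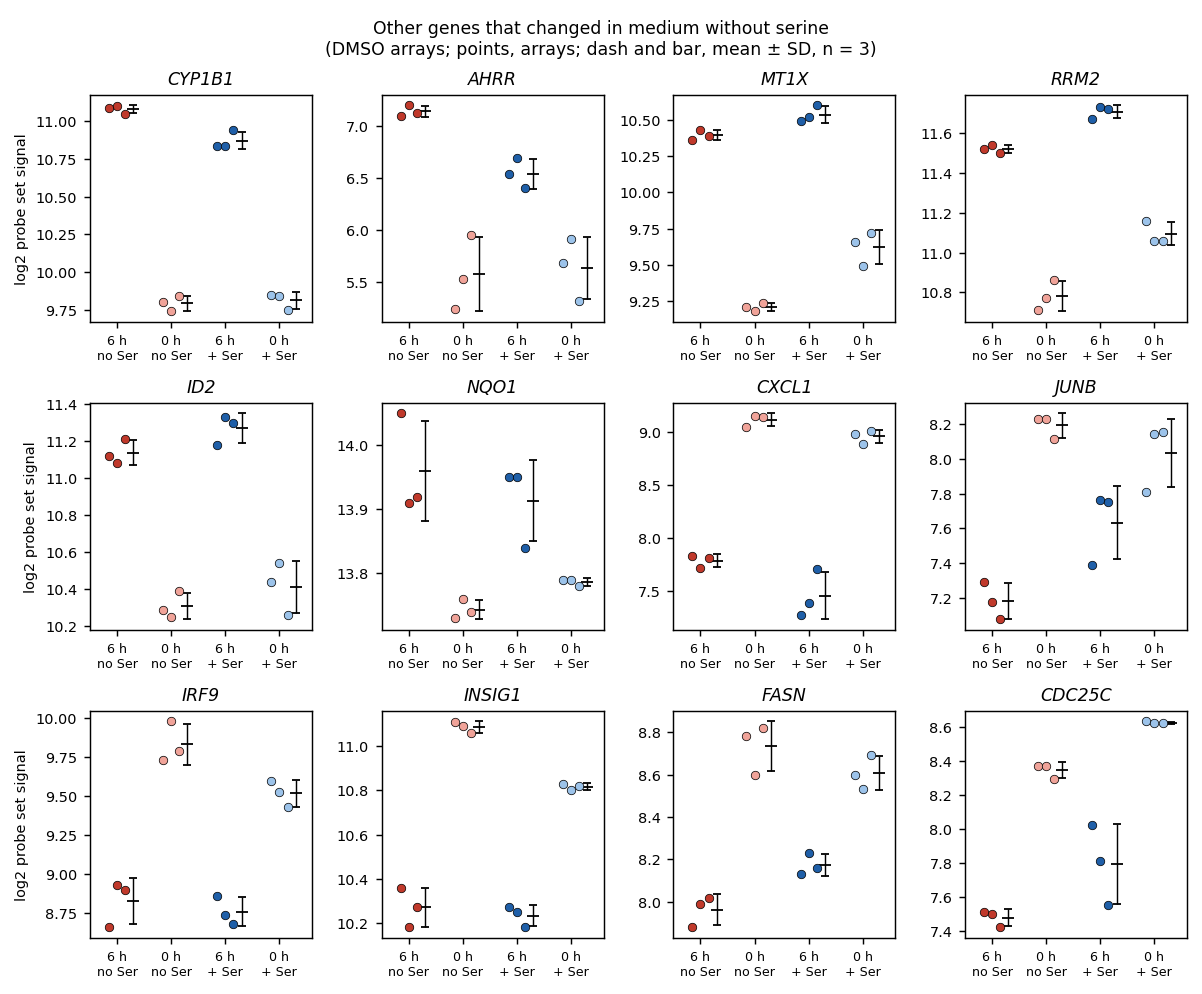
Log2 probe set signals of 12 other genes that changed without serine, 1 panel per gene, in DMSO arrays at 6 h and 0 h without serine (red, pale red) and with serine (blue, pale blue). Points are arrays and the dash with its bar is the mean ± SD (n = 3). CYP1B1, AHRR, MT1X, RRM2 and ID2 stood higher at 6 h in both media, and CXCL1, IRF9, INSIG1, FASN and CDC25C lower.

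Some inflammatory, growth factor and stress signalling genes fell. CXCL1, a neutrophil chemokine, had 7.83, 7.71 and 7.81 at 6 h and 9.05, 9.16 and 9.15 at 0 h without serine, the largest fall of the comparison at 1.34 on the log2 scale (adjusted p = 4.55e-08). CXCL2, a second such chemokine, fell by 0.75 and LIF, an interleukin 6 family cytokine, by 0.42. Of 17 chemokines and cytokines 0 rose and 5 fell, and of 21 interferon-stimulated genes 0 rose and 5 fell, counts of 0 and 5 and of 0 and 4 with centred arrays. IRF9, the DNA-binding subunit of the interferon-activated ISGF3 complex, had 8.66, 8.93 and 8.90 at 6 h and 9.73, 9.98 and 9.79 at 0 h. It fell by 1.00 on the log2 scale (adjusted p = 3.25e-10), and IFITM1 and IFITM3, antiviral membrane proteins, by 0.81 and 0.80.

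Of 23 AP-1 and immediate early genes 1 rose and 10 fell (4 and 10 with centred arrays), and of 16 genes of MAP kinase feedback 0 rose and 8 fell (1 and 5 with centred arrays). JUNB, an AP-1 subunit, had 7.29, 7.18 and 7.08 at 6 h and 8.23, 8.23 and 8.11 at 0 h, a fall of 1.01 on the log2 scale. FOSL2, its partner family, fell by 0.76 and KLF6, a zinc finger factor, by 0.65. The phosphatases DUSP5 and DUSP4, which switch off ERK, fell by 0.58 and 0.32, and SOCS3, a brake on cytokine signalling, by 1.13. The other probe set of SOCS3 stood at -0.03, without a call. With serine the counts were 1 and 8, and 0 and 9, or 1 and 6, and 1 and 8, with centred arrays. The genes named here did not pass the test of the difference between the media.

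Many sterol synthesis genes fell in both media, while the balance of fat synthesis genes with serine depended on the scaling. Of 19 cholesterol synthesis genes 1 rose and 11 fell (2 and 7 with centred arrays), with a list median of -0.30. INSIG1, which holds the sterol sensor in the endoplasmic reticulum and is itself induced when sterols are low, had 10.36, 10.18 and 10.27 at 6 h and 11.11, 11.09 and 11.06 at 0 h. It fell by 0.82 on the log2 scale (adjusted p = 4.91e-09), and the enzymes MVK and NSDHL fell by 0.66 and 0.64. FASN, the fatty acid synthase, had 7.88, 7.99 and 8.02 at 6 h and 8.78, 8.60 and 8.82 at 0 h, a fall of 0.77. ACACA, which makes its substrate malonyl-CoA, fell by 0.40, whereas ELOVL5, an elongase of polyunsaturated fatty acids, rose by 0.36 ± 0.06, in a list of 12 with 2 higher and 4 lower (the same counts with centred arrays). With serine 0 of the 19 cholesterol genes rose and 9 fell, and 2 of the 12 fatty acid genes rose and 6 fell. With centred arrays the counts with serine were 1 and 6 for cholesterol synthesis and 3 and 2 for fatty acid synthesis.

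Cell cycle genes split by phase. Of 27 DNA replication genes 10 rose and 1 fell (16 and 1 with centred arrays), while of 27 mitosis genes 2 rose and 12 fell (5 and 7 with centred arrays). RRM2, the small subunit of ribonucleotide reductase, had 11.52, 11.54 and 11.50 at 6 h and 10.71, 10.77 and 10.86 at 0 h, a rise of 0.74 ± 0.06 (adjusted p = 1.8e-11). Its other probe set stood at 0.09, without a call. CDC6, which loads the replicative helicase, and FEN1, a flap nuclease, rose by 0.41 ± 0.06 and 0.39 ± 0.08. CDC25C, the phosphatase that activates CDK1 for mitosis, had 7.51, 7.50 and 7.42 at 6 h and 8.37, 8.37 and 8.29 at 0 h, a fall of 0.87 on the log2 scale. CCNB2, a mitotic cyclin, fell by 0.41. CENPF is uncertain, since its probe sets were called in opposite directions (-0.64 and 0.61).

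In RNA of whole cultures, fewer cells in mitosis and less of these transcripts per cell cannot be told apart. With serine 11 of the 27 replication genes rose and 1 fell, and 2 of the 27 mitosis genes rose and 14 fell. With centred arrays these counts were 18 and 0 for replication and 5 and 6 for mitosis, so the excess of mitosis falls with serine was small on that scaling. The E2F motif (TTTCGCGC or TTTGGCGC on both strands) was found in the promoters of 9 of 25 replication genes with an entry (36.0%) and of 289 of 14492 tested genes (1.99%). Of these 9, CDC6 and MCM6 were called higher without serine, POLA1 was called lower and the others were not called. Among all genes with an entry, 36 of 1202 that rose without serine held it (3.0%), and 47 of 2200 that fell (2.14%). Of 17 regulators of S phase entry 5 rose and 1 fell (11 and 0 with centred arrays), with CCNE2, a cyclin of S phase entry, at 0.71 ± 0.18, and E2F3 at 0.40 ± 0.07. CDKN1B, an inhibitor of the same step, rose too, by 0.46 ± 0.09, with 0.03 ± 0.09 with serine and a difference that did not pass (adjusted p = 0.119).

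**Figure D4:**
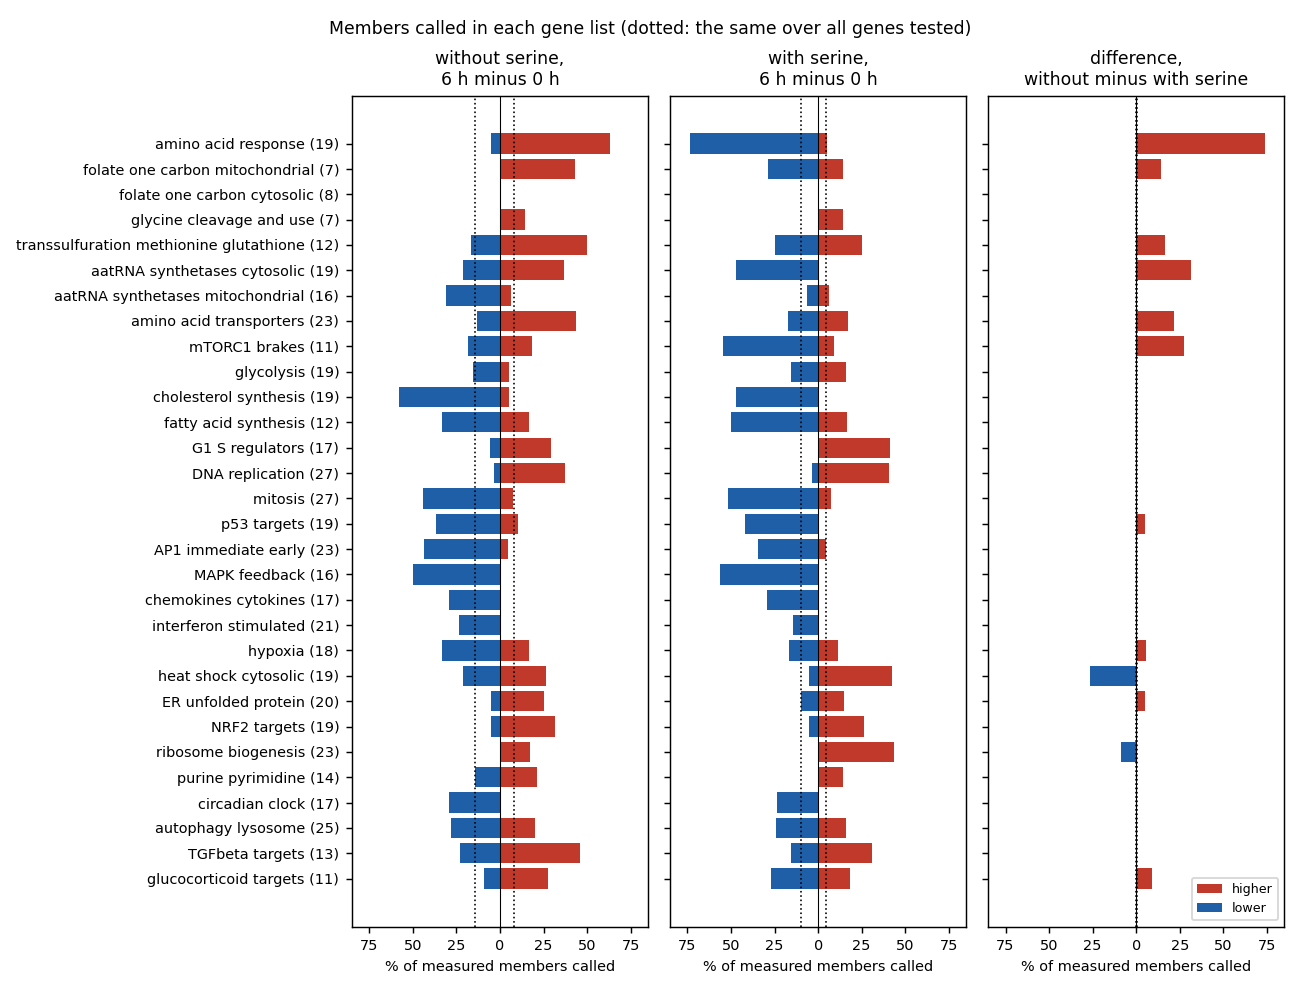
Share of the measured members of the gene lists with 7 or more measured genes (number measured in brackets) called higher (red, right) or lower (blue, left), in %, for 6 h minus 0 h without serine, the same with serine, and the difference of the changes between the media. Dotted lines give the shares over all genes tested. The amino acid response stands out to the right without serine and to the left with it, whereas cholesterol synthesis and MAP kinase feedback lie mostly to the left in both media, as does mitosis on the deposited values shown here (5 higher and 7 lower without serine, 5 and 6 with it, when arrays are centred).

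Some redox genes rose. Of 19 NRF2 targets 6 rose and 1 fell (9 and 0 with centred arrays), with GCLC and GCLM, the subunits of glutamate-cysteine ligase, at 0.44 ± 0.07 and 0.39 ± 0.07 and SRXN1, sulfiredoxin, at 0.38 ± 0.05. Of 12 genes of transsulfuration, methionine and glutathione metabolism 6 rose and 2 fell (6 and 1 with centred arrays), and 2 differed between the media, both above 0. GSR, the glutathione reductase, rose by 0.37 ± 0.05, while GSS, the glutathione synthetase, fell by 0.41 on the log2 scale. Of 13 TGF beta and BMP targets 6 rose and 3 fell (8 and 2 with centred arrays), with ID2 at 0.83 ± 0.07 and ID3 at 0.31 ± 0.05. Of 23 ribosome biogenesis genes 4 rose and 0 fell (9 and 0 with centred arrays), with NOP58, a core protein of box C/D particles, at 0.43 ± 0.06. In medium with serine more of them rose, 10 and 0 fell (17 and 0 with centred arrays). Of the 23, 2 differed between the media, both below 0, and 0 did after quantile normalization. Of 20 genes of the unfolded protein response in the endoplasmic reticulum 5 rose and 1 fell (10 and 0 with centred arrays), with HERPUD1, an ATF4-responsive degradation factor, at 0.43 ± 0.07 and a difference between the media of 0.79 ± 0.11. Counts with serine were 5 and 1 for NRF2 targets and 3 and 3 for transsulfuration, methionine and glutathione genes. They were 4 and 2 for TGF beta and BMP targets and 3 and 2 for the unfolded protein response. Centred arrays gave these lists with serine, in that order, 13 and 0, 4 and 2, 8 and 2, and 14 and 0.

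Other lists were mixed. Of 19 p53 targets 2 rose and 7 fell, but 3 and 3 with centred arrays, and BAX, a pro-apoptotic pore protein, fell by 0.50 on the log2 scale. Of 17 clock genes 0 rose and 5 fell, or 0 and 2 with centred arrays and 0 and 3 after quantile normalization, with BHLHE40, a repressor of the clock, down by 0.74. Hypoxia genes (3 of 18 higher, 6 lower) and lysosome and autophagy genes (5 of 25 higher, 7 lower) changed their balance with centred arrays to 8 higher and 2 lower and to 9 higher and 4 lower. Of 11 mTORC1 brakes 2 rose and 2 fell (3 and 2 with centred arrays), with DDIT4L at 0.83 ± 0.11, and 3 of the 11 differed between the media, all above 0. Cytosolic heat shock genes had 5 of 19 higher and 4 lower, or 8 and 1 with centred arrays. Of 14 nucleotide synthesis genes 3 rose and 2 fell, and of 11 glucocorticoid targets 3 rose and 1 fell; with centred arrays both lists had 4 higher and 1 lower. Of 19 glycolysis genes 1 rose and 3 fell, with PFKFB3, which makes the activator fructose-2,6-bisphosphate, at 0.51 ± 0.06, or 3 and 1 with centred arrays. TXNIP, an arrestin whose transcription follows sugar phosphates, had 7.19, 7.11 and 7.25 at 6 h and 7.45, 7.19 and 7.74 at 0 h, and -0.28 ± 0.23 did not pass (adjusted p = 0.427). This rests on its brightest probe set. Its 5 probe sets ran from -0.73 to 0.20, with 2 called lower and 0 higher.

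The remaining named falls were of varied function. H2AC25, a histone H2A gene, fell by 1.25 on the log2 scale, RASSF9 and RASSF10 of the RAS association domain family by 1.27 and 1.10, and GATA3, a transcription factor, by 1.08. STC1, a relative of STC2, fell by 0.99, the opposite of STC2, with 6.14, 6.09 and 6.22 at 6 h and 7.05, 7.34 and 7.02 at 0 h. PLD1, a phospholipase, fell by 0.96, and YPEL3 and CAPN12 by 1.01 and 1.16. TAF5, a subunit of the general factor TFIID, fell by 0.96. HDAC8 and LZTFL1, at -1.02 ± 0.15 and -1.05 ± 0.13, have probe sets that ran the other way, as high as 0.42 and 0.28.

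The 1.5 h arrays between the end points showed different courses. From 0 to 1.5 h without serine 2586 genes changed (14.2%), 1017 higher (5.58%) and 1569 lower (8.6%). From 1.5 to 6 h 717 changed (3.93%), 255 higher (1.4%) and 462 lower (2.53%). Signals of MTHFD2 averaged 11.46 ± 0.03 at 0 h, 11.93 ± 0.11 at 1.5 h and 12.36 ± 0.07 at 6 h (SD, n = 3 each), and those of PSAT1 11.25 ± 0.11, 11.61 ± 0.12 and 12.16 ± 0.06. Both steps passed for these genes. ASNS and GARS1 had not passed at 1.5 h (-0.05 ± 0.07 and 0.09 ± 0.06) and rose after it, by 0.44 ± 0.07 and 0.52 ± 0.06.

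Other genes peaked at 1.5 h. NR4A1, an immediate early nuclear receptor, rose by 2.34 ± 0.10 in the first step (5.07-fold, adjusted p = 1.33e-19) and fell by 2.99 on the log2 scale in the second, ending lower at 6 h than at 0 h (-0.65 ± 0.10). ATF3, a stress-induced AP-1 factor, rose by 2.05 ± 0.14 and then fell by 1.88, and NR4A3 rose by 1.90 ± 0.15 and fell by 2.21. CHAC1 rose by 1.58 ± 0.16 and fell by 0.83. Early falls were smaller, with ZNF546, a zinc finger gene, and TAF5 at -1.08 ± 0.20 and -1.02 ± 0.15 in the first step.

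By 24 h the rise of the amino acid genes had gone. From 6 to 24 h without serine 2156 genes changed (11.8%), 816 higher (4.47%) and 1340 lower (7.35%). None of the 19 response genes rose and 15 fell. STC2 fell by 2.16 on the log2 scale, SLC1A4 by 1.34, SLC7A1 by 1.20, ASNS by 1.13, PSAT1 by 1.03 and MTHFD2 by 1.02. MTHFD2 averaged 11.34 ± 0.11 and PSAT1 11.13 ± 0.02 at 24 h (SD, n = 3). CYP1B1 fell by 1.51 and GREM1 fell by 2.20, whereas INSIG1 rose by 0.86 ± 0.08, and 23 of the 27 mitosis genes rose and 0 fell. The response and mitosis lists were not counted with centred arrays for this step. Over all genes that scaling gave 1244 higher and 814 lower.

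**Figure D5:**
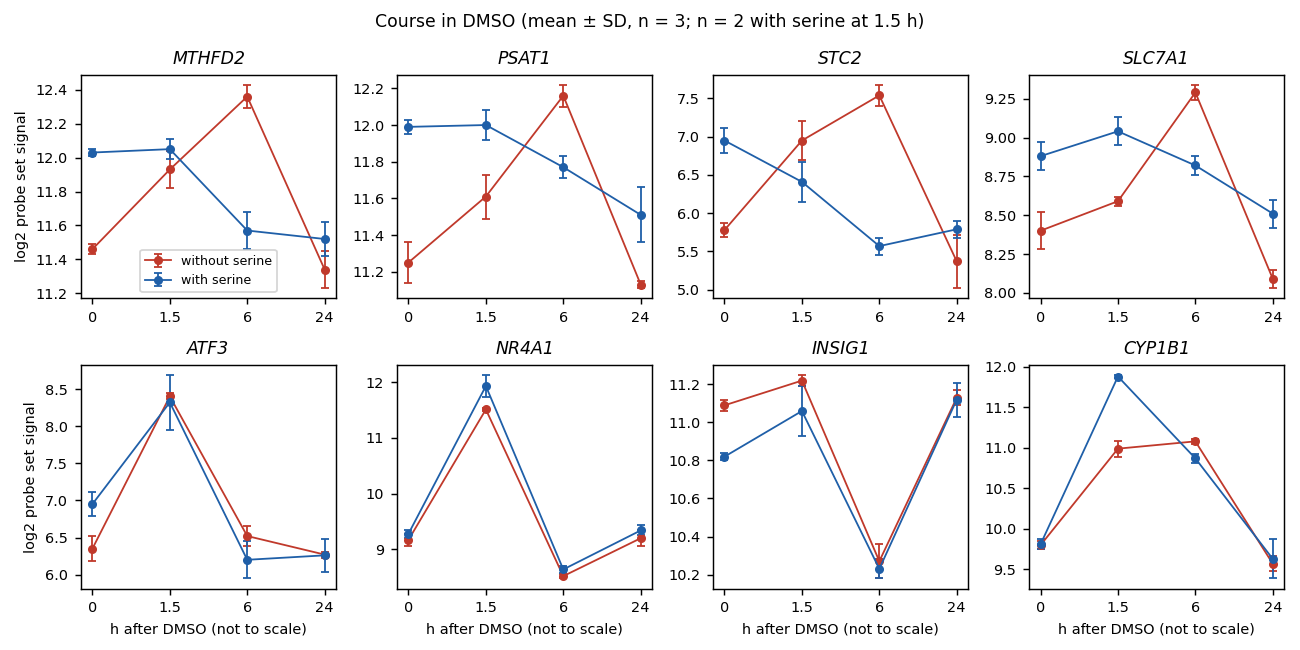
Mean log2 probe set signal ± SD of 8 genes at 0, 1.5, 6 and 24 h after DMSO, without serine (red) and with serine (blue), n = 3 arrays per point and n = 2 with serine at 1.5 h; times are evenly spaced and not to scale. MTHFD2, PSAT1, STC2 and SLC7A1 without serine peak at 6 h, ATF3 and NR4A1 peak at 1.5 h in both media, and INSIG1 is lowest at 6 h in both.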

How the data were processed

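Extracts of A549 cells, made with Trizol according to the labels' protocols, were read on Affymetrix HG-U219 arrays. The authors deposited log2 probe set signals. The submitters' processing notes name RMA, which scales arrays to each other and compresses changes of dim probe sets, and limma, without versions.

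By the platform annotation 45253 of 49386 probe sets name 1 gene, 1327 several and 2713 none, and 93 are controls. Each gene was read from its brightest probe set on average, with no filter. Other probe sets are described for some genes only, so silence about a gene does not mean that its probe sets agreed. Those of SIPA1L2, for example, ran from 0.08 to 1.06 without serine. All 50 arrays entered 1 fit of 17 group means (limma 3.58.1, R 4.3.3; lmFit, eBayes; 33 residual and 3.7 prior degrees of freedom), two-sided, with Benjamini-Hochberg adjustment over 18239 genes. The median SE was 0.122. In simulated data on 18239 genes, 60% of changes of 0.5 and 97% of changes of -1 were recovered for 6 h minus 0 h without serine, and 11 unchanged genes were called. The same shares were 36% and 85% for the difference between media, where 3 unchanged genes were called. The simulation changed only 100 genes by each size, whereas 4087 were called in the data without serine. It used independent normal noise and held no shift between time blocks, so its shares need not hold for these arrays.

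Members and gene lists were chosen with earlier results of these data known. The rule named 8 genes always (MTHFD2, PSAT1, PSPH, PHGDH, SHMT2, PKM, TXNIP, ASNS), the 15 largest rises and falls whose arrays did not overlap, up to 3 genes per list by smallest p, every called serine or one-carbon gene, the 8 largest differences between media each way, and the 5 largest changes each way at 1.5 h. CEBPB, LARS1, SARS1, LYZ, EPCAM and any other gene outside it were picked after their values were seen. Alternatives were a filter on dim genes, quantile normalization, median centring, fitting the compared arrays alone, a trended robust prior, array weights, the mean of all probe sets, other 0 h arrays and leaving out each array.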

Additional observations from a re-analysis of the deposited data

Results flagged for a closer look

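The change from 0 to 6 h in DMSO differed between the media, without minus with serine, for 87 genes by the limma test of the difference. Among the named genes the difference was 3.14 for STC2, 1.51 for CHAC1, 1.46 for TUBE1, 1.35 for MTHFD2, 1.34 for NUPR1 and 1.34 for CARS1 on the log2 scale. It was 1.19 for TRIB3, 1.16 for SNTB1, 1.13 for PSAT1, 1.12 for SLC1A4, 0.95 for SLC7A1 and 0.92 for ATF3. Of the 7 probe sets of ATF3 only 4 had the sign of this difference and 1 was called, with a range of -0.35 to 0.92. Smaller differences above 0 were 0.84 for GARS1, 0.83 for DEPTOR, 0.79 for HERPUD1, 0.79 for ATF4, 0.76 for ASNS, 0.68 for TARS1, 0.57 for PSPH, 0.56 for BBC3 and 0.43 for SLC3A2. Below 0 were STIP1 at -0.44, PRPF38A at -0.55, UBN1 at -0.61, ZP1 at -0.63, NKPD1 at -0.66, PRB4 at -0.69, MKNK2 at -0.72, ARMCX4 at -0.81 and UGT2B11 at -0.85. Of the 87 genes, 38 were called in all 12 fits that each left out 1 array, 31 of them above 0. STC2, MTHFD2, PSAT1, CARS1, ASNS and ATF4 were among these. ATF3 was called in 8 of the 12, UBN1 in 8, NKPD1 and ARMCX4 in 5, ZP1 in 4, UGT2B11 in 3, SLC3A2 and PRB4 in 2 and PRPF38A in 1. Groups of 3 arrays were not searched for outlying arrays.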

How the results depend on the processing

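No paired analysis was possible because the groups share no replicate numbers. Groups of 3 arrays limit the precision. Fitting only the compared arrays lowered the count of called genes to 2013 without serine (6 h minus 0 h), 805 with serine, 27 for the difference between the media (27 above 0 and 0 below, so each of the 27 genes below 0 lost its call), 259 for 1.5 h minus 0 h, 109 for 6 h minus 1.5 h and 760 for 24 h minus 6 h. Fewer residual degrees of freedom enter such fits by construction. Leaving out dim genes gave 133 differences between the media and a trended robust prior 132, and the cause was not tested. Centred arrays gave 4098 calls with serine. They moved the split to 1579 higher and 671 lower for 1.5 h minus 0 h, against 1017 and 1569 as deposited, to 614 and 289 against 255 and 462 for 6 h minus 1.5 h, and to 1244 and 814 against 816 and 1340 for 24 h minus 6 h. Leaving out 1 array gave 3193 to 3424 calls without serine, 1873 to 2149 with serine, 58 to 92 differences, 1702 to 2096 for 1.5 h minus 0 h (fewest without replicate 56 of 1.5 h), 446 to 627 for 6 h minus 1.5 h (446 and 467 without replicates 55 and 54 of 1.5 h, 469 without replicate 66 of 6 h) and 1522 to 1674 for 24 h minus 6 h. SHMT2 turned to 0.03 with centred arrays (adjusted p = 0.785), and the difference for PKM to -0.02 with the mean of all probe sets (adjusted p = 0.959); neither was called in any setting. With the mean of 6 arrays at 0 h 4584 genes were called. Of 128 named genes called without serine, 120 kept the call in all 6 fits that left out 1 array.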
